A study of Drosophila melanogaster with 24 samples.

Results

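The transcripts described here are those whose level in the developing Drosophila wing was far lower at 36 h after puparium formation (APF) than at any earlier stage examined. Many were already lower at 24 h APF than in the larval disc. They were chosen by their measured values: the mean log2 intensity at 36 h APF had to lie at least 2 below the lowest of the means of the other 5 stages, a 4-fold or larger drop on the linear scale. The rule took 262 of 15473 transcripts. Wings of flies of genotype w1118 with otherwise wild-type chromosomes, a white-eyed laboratory strain, were dissected from wandering larvae of the last instar (L3), from prepupae at 2 and 6 h APF and from pupae at 18, 24 and 36 h APF. No transgene, mutation of interest or treatment was added at any stage, so the groups differ in developmental age. There were 4 independent samples, each of several wings, at each stage and 3 at 36 h APF, and 1 more array carried RNA of the 36 h samples B and D mixed. Samples from L3, 2 and 6 h APF still held the presumptive notum, the part of the disc that forms the back of the thorax, and those from 18 h APF on did not. Comparisons of the first 3 stages with the last 3 therefore combine age and this tissue, and the effects of age and tissue cannot be told apart.

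In this period the wing disc, a folded sheet of epithelial cells, everts and stretches into a flat wing blade under pulses of the steroid hormone ecdysone. Its cells pause in G2 around 6 h APF, divide for the last time and leave the cell cycle by 24 h APF, after which each cell grows an actin-filled hair and begins to lay down cuticle. The interval from 24 to 36 h APF thus separates a wing that has just stopped dividing from one that is differentiating.

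The arrays were of 1 colour (Cy3), and each value is the intensity of a transcript summarised by RMA from 3 to 5 probes after quantile normalization of all arrays together. Array medians over all transcripts ran from 9.28 to 9.58 on the log2 scale. For 14 arrays the labels hold a second stage entry that disagrees with the sample title, and the title was used. The arrays came from 6 slides of 4 arrays. The files name transcripts by FlyBase identifier alone. None of the 262 could be tied to a single gene and 2 could be tied to a pair of genes, so the tissue could not be checked against marker genes. In RNA from whole wings, fewer cells that express a gene and less RNA per cell cannot be told apart.

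Before 36 h APF the median level of the 262 transcripts was highest in the larval disc and lowest at 24 h APF. The median of their stage means on the log2 scale was 11.41 at L3, 10.83 at 2 h, 10.49 at 6 h, 10.99 at 18 h, 10.09 at 24 h and 7.37 at 36 h APF. On single arrays their median lay between 11.35 and 11.49 at L3, 10.61 and 11.02 at 2 h, 10.32 and 10.64 at 6 h, 10.66 and 11.11 at 18 h, and 9.75 and 10.47 at 24 h APF. At 36 h APF it was 7.45 in sample B, 7.19 in C and 7.38 in D. The profile thus had 2 low points, a shallow one at 6 h and the deep one at 36 h APF, with a partial return at 18 h APF between them.

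**Figure D1:**
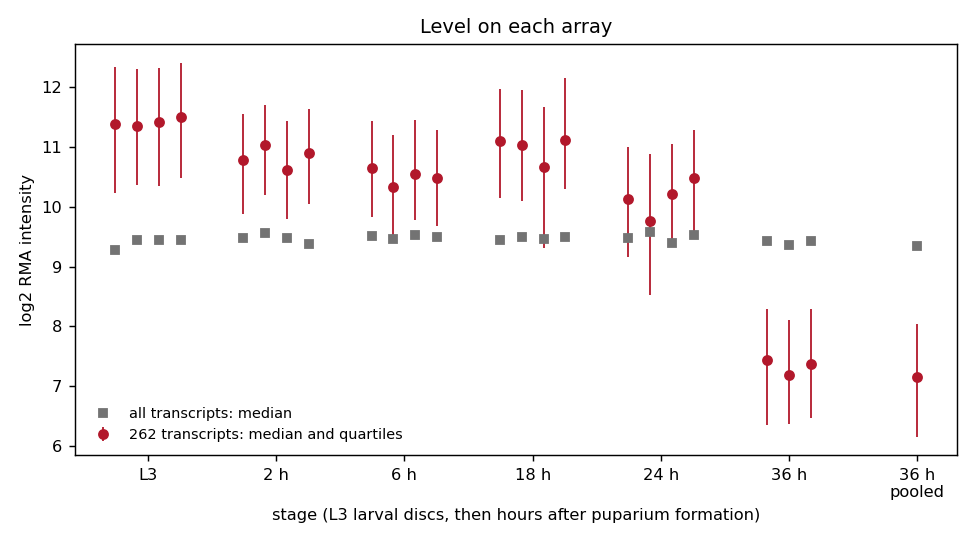
Level on each of the 24 arrays, by stage. Red points are the median of the 262 transcripts with bars to their quartiles, and grey squares are the median of all transcripts (y axis, log2 RMA intensity). The 36 h medians of the 262 lie between 7.19 and 7.45, below the lowest 24 h array at 9.75, while the medians of all transcripts stay between 9.28 and 9.58.

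The drop that chose the transcripts had a median of -2.40 on the log2 scale, a 5.27-fold fall, and reached -5.26. It was 3 or more for 56 transcripts and 4 or more for 13. The choice has no gap behind it: the 5 transcripts just inside the threshold had drops from -2.0128 to -2.0002, and the 5 just outside had drops from -1.9995 to -1.9937. At 36 h APF the means ran from 4.57 to 11.87, and 189 of the 262 were still at or above the lower quartile of all values on the arrays, 6.59. For 14 the 36 h mean was at or above the median of all values, 9.45. RMA levels of different transcripts are not on a common scale and the files carry no detection call, so a low 36 h value is reported as a fall and not as loss of expression.

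All 3 arrays of 36 h APF were below all 20 earlier arrays for each of the 262 transcripts, which held for 14.5% of all transcripts. The distance from the highest 36 h array to the lowest earlier one had a median of 1.64 and was at least 0.31. The test of limma (a linear model across all transcripts, Benjamini-Hochberg adjusted p under 0.05) called all 262 lower at 36 h than at 24 h APF, against 29.6% of all transcripts, and 0 higher, against 20.5%. At an unadjusted p under 0.05 the number higher was also 0. The rule used these values, so the counts describe the choice. The median difference of 36 h from 24 h APF was -2.54, a 5.82-fold fall, with a range from -6.36 to -2.0002.

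An array that took no part in the choice gave drops close to those of the arrays that chose. When the rule was applied to the other 36 h arrays alone, sample B had a median drop of -2.32 over 281 transcripts chosen without it, C had -2.48 over 246 and D had -2.22 over 287. The choosing arrays had medians of -2.38, -2.42 and -2.43 over the same sets. The left-out array was itself 2 or more below the lowest earlier stage mean for 190, 195 and 188 of these transcripts in B, C and D, against 1.83%, 2.40% and 1.67% of all transcripts. It was below that mean at all for 280, 246 and 286, for which the shares over all transcripts were not counted. The earlier stage means were shared by the choice and this reading, so only the 36 h side is independent. The mixed array of samples B and D is a repeat of those extracts and not a further sample. It lay below every earlier array for all 262 transcripts and 2 or more below the lowest stage mean for 229. Samples B and D took part in the choice, so these 2 counts describe it, and their shares over all transcripts were not counted.

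**Figure D2:**
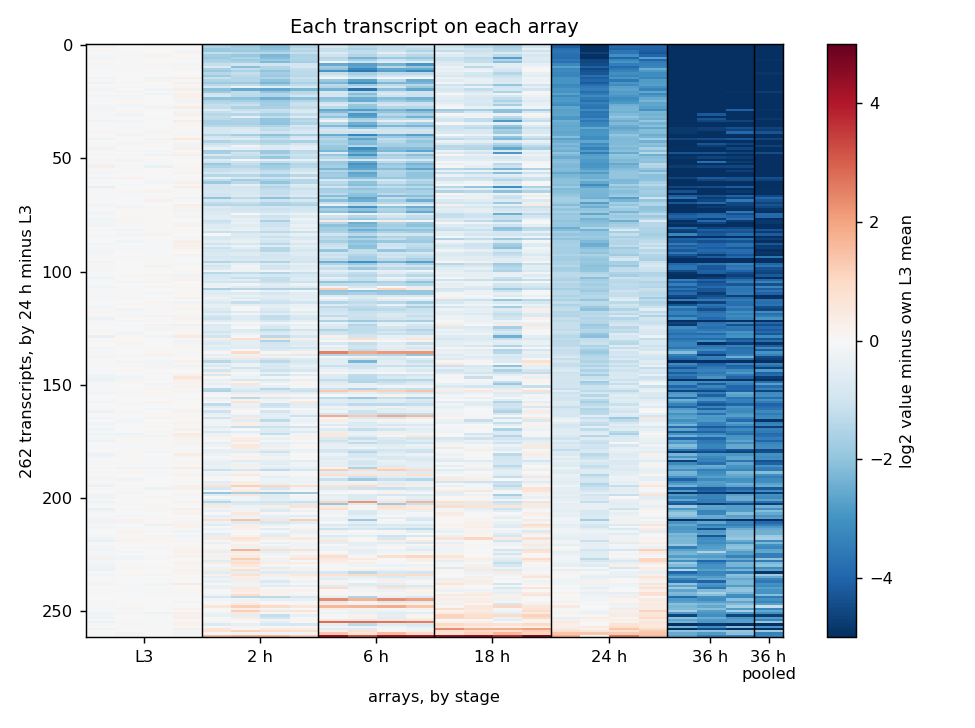
The 262 transcripts (rows, ordered by 24 h minus L3) on the 24 arrays (columns, by stage), coloured by log2 value minus the transcript's own L3 mean, with the colour scale ending at 5 in either direction. The 36 h columns and the mixed 36 h array (36 h pooled) are blue throughout, the upper rows are already blue at 24 h and 6 h APF, and a few rows at the bottom are red at 6 or 18 h APF.

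The order of the 5 earlier stages was not fixed by the rule, and it was uneven. L3 was the highest of these stages for 182 transcripts, 18 h for 33, 6 h for 25, 2 h for 20 and 24 h APF for 2. The lowest was 24 h APF for 157, 6 h for 66, 2 h for 17, 18 h for 15 and L3 for 7. These counts were not made over all transcripts, so whether the order is particular to the chosen transcripts was not tested. The distance between the highest and lowest of the 5 means had a median of 1.45, was under 1 for 82 transcripts and over 2 for 85. Of the whole change between L3 and 36 h APF on the log2 scale, the part that fell between 24 and 36 h had a median of 69.9% (quartiles 57.6% and 84.4%) and was over 50% for 231 transcripts. The rule itself puts a fall of at least 2 into that interval.

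The samples of 1 stage did not lie equally close together for these transcripts. The median SD among samples was 0.11 at L3, 0.23 at 2 h, 0.24 at 6 h, 0.31 at 18 h, 0.36 at 24 h and 0.35 at 36 h APF, against 0.15, 0.24, 0.23, 0.25, 0.29 and 0.28 over all transcripts at these stages. At 24 h APF sample B was the lowest of its stage for 194 of the 262, against 26.2% of all transcripts, and lay a median of -0.53 from the mean of the other 24 h samples. At 18 h APF sample C was the lowest for 204, against 39.6% of all transcripts, with a median of -0.49. Both held for 168 of the 262, against 17.8% of all transcripts. In 24 h B, 100 of the 262 were less than 2 above their 36 h mean, and in the other 24 h samples 4 to 22 were. The rule used the 24 h and 36 h means, so these counts partly describe the choice. Their shares over all transcripts were not counted. The other arrays on the slide of 18 h C and 24 h B, L3 sample 2 and 36 h B, lay a median of -0.01 and -0.01 from their own stages. With 18 h C and 24 h B left out, the rule took 290 transcripts, 260 of them among the 262.

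Set against L3, more of the transcripts were called lower than higher at each time before 36 h APF. Most were called lower at 6 and 24 h but not at 2 and 18 h APF. At 2 h APF, 127 of the 262 were lower and 5 higher (limma, adjusted p under 0.05), against 10.5% and 10.9% of all transcripts, and the median difference was -0.58. At 6 h APF, 165 were lower and 16 higher, against 24% and 18.8% of all transcripts, with a median of -0.87. At 18 h APF, 98 were lower and 11 higher, against 14.3% and 13% of all transcripts, and the median was -0.43. At 24 h APF, 188 were lower and 4 higher, against 17.3% and 17.9% of all transcripts, with a median of -1.13, a 2.20-fold fall. The medians over all transcripts lay between -0.04 and 0.04 in these 4 comparisons, which share the L3 arrays. The rule favours transcripts that were bright before 36 h APF: the L3 mean was under the median of all values, 9.45, for only 20 of the 262. Shares over all transcripts, here and below, were not matched for level, and the part that level plays in the differences was not tested. The small counts of higher transcripts moved with single arrays, while the counts of lower ones stayed within 1.5 times. Those higher at 2 h numbered 2 without L3 sample 3 and 3 without L3 1, L3 2, L3 4, 2 h C, 2 h E or 36 h C. Those higher at 18 h numbered 7 without 18 h B, and those higher at 24 h numbered 7 without 36 h B, whose absence changes the choice of transcripts.

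**Figure D3:**
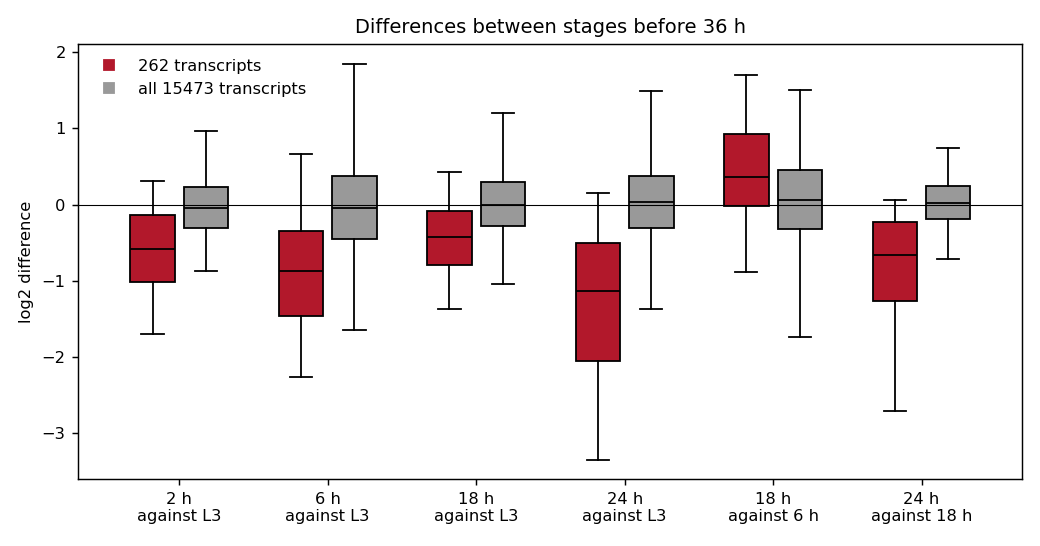
Log2 differences between stages before 36 h APF for the 262 transcripts (red) and all 15473 (grey). Boxes span the quartiles, lines mark medians and whiskers end at the 5th and 95th percentiles. The red medians are -0.58, -0.87, -0.43 and -1.13 at 2, 6, 18 and 24 h APF against L3, 0.36 for 18 h against 6 h and -0.66 for 24 h against 18 h APF.

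Between neighbouring stages, a portion of the transcripts was called higher at 18 h than at 6 h, and a portion lower at 24 h than at 18 h APF, each short of a majority. At 18 h against 6 h APF, 109 of the 262 were higher, against 22.6% of all transcripts, and 29 were lower, against 17.9% of all transcripts. The median difference was 0.36, and 0.06 over all transcripts. Without 6 h A the number lower was 19, and without 18 h C it was 18. With dim transcripts left out it was 15, among the 199 transcripts that remained. At 24 h against 18 h APF, both without notum, 126 were lower, against 6.06% of all transcripts, and 0 were higher, against 6.64%. At an unadjusted p under 0.05, limma had 2 higher, and 1 was called higher under each of 4 alternatives: unmoderated variances, limma without 18 h D, cyclic loess, and dim transcripts left out. The median difference was -0.66, a 1.58-fold fall, and 0.03 over all transcripts. With 18 h C and 24 h B left out, 140 were lower and 0 higher.

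Arrays of neighbouring stages that shared a slide gave the same directions. Of 24 h A against 18 h A, the median was -0.86 and 239 of the 262 were lower, against 48.7% of all transcripts. Of 24 h B against 18 h C, the samples that stood apart, the median was -0.62 and 219 were lower, against 37.7% of all transcripts. Of 18 h against 6 h APF, on 3 shared slides, the medians were 0.37, 0.70 and 0.54. The 36 h array was below the 24 h array of its slide for all 262 on each of 3 slides, against 62.6%, 52.5% and 53.2% of all transcripts. The medians over the 262 were -2.21, -2.81 and -2.91, the smallest fall being on the slide of 24 h B. The rule used the values of these arrays, so the 36 h differences describe the choice.

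Other transcripts that fell between 24 and 36 h APF give a point of reference. Outside the 262, 4311 were called lower at 36 h than at 24 h APF. Of these, 469 (10.9%) had also been lower at 24 h than at 18 h, against the 48.1% among the 262. At 24 h against L3 the shares were 71.8% among the 262 and 31.5% among the 4311, and at 6 h against L3 they were 63% and 48.9%. Both sets were chosen with the 24 h arrays. Only 261 of the 4311 fell by 2 or more between 24 and 36 h APF. By the rule, 24 h APF could not be the lowest earlier stage for any of those 261, while it was for 157 of the 262. The contrast at 24 h APF is thus partly built in by the choice, and no test was made of these differences.

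Combining these calls gave groups, formed after the values were seen. The first dipped and came back: 98 transcripts were lower at 6 h than at L3 and higher at 18 h than at 6 h APF, against 15.1% of all transcripts. Their median stage means were 12.16 at L3, 11.14 at 2 h, 10.48 at 6 h, 11.73 at 18 h, 10.48 at 24 h and 7.39 at 36 h APF. Of these, 80 were also lower at 24 h than at 18 h APF, a combination found in 2.91% of all transcripts. That is 81.6% of the 98, and among all transcripts that dipped and came back the share was 19.3%. The rise at 18 h and the fall after it share the 18 h arrays. For the 98 the median drop was -2.67.

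The 126 transcripts lower at 24 h than at 18 h APF, which include those 80, had medians of 12.15 at L3, 11.09 at 2 h, 10.87 at 6 h, 11.67 at 18 h, 10.34 at 24 h and 7.29 at 36 h APF. Their falls at 24 h and at 36 h APF were both conditions of the choice, so they describe it. A total of 59 transcripts were lower than L3 at each of 2, 6, 18 and 24 h APF, against 4.47% of all transcripts.

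A smaller group had no change called before 36 h APF. For 37 transcripts none of the 6 comparisons made among the earlier stages was called, against 37.8% of all transcripts. Other pairs of these stages were not compared. A transcript of this group had means of 9.24 at 2 h and 7.93 at 6 h APF. The medians of the 37 were 10.24 at L3, 10.13 at 2 h, 10.12 at 6 h, 10.13 at 18 h, 10.04 at 24 h and 7.79 at 36 h APF. Their median drop was -2.16, and the largest was -3.23. This number fell to 19 without 24 h E and to 21 with array medians centred again, and absence of a call does not show that the stages were equal.

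Across these groups, 25 of the 262 transcripts were higher than L3 at 1 or more of the 4 times, against 32.3% of all transcripts, and 7 of the 25 belong to the groups that dipped at 6 h or fell at 24 h APF. Of the 25, 7 were also lower than L3 at another time and 18 were called only higher. Their medians were 10.95 at L3, 10.96 at 2 h, 11.62 at 6 h, 11.33 at 18 h, 11.19 at 24 h and 7.59 at 36 h APF. The group median at 24 h APF was thus close to that at L3, but 5 of the 25 were called lower than L3 at 24 h APF.

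**Figure D4:**
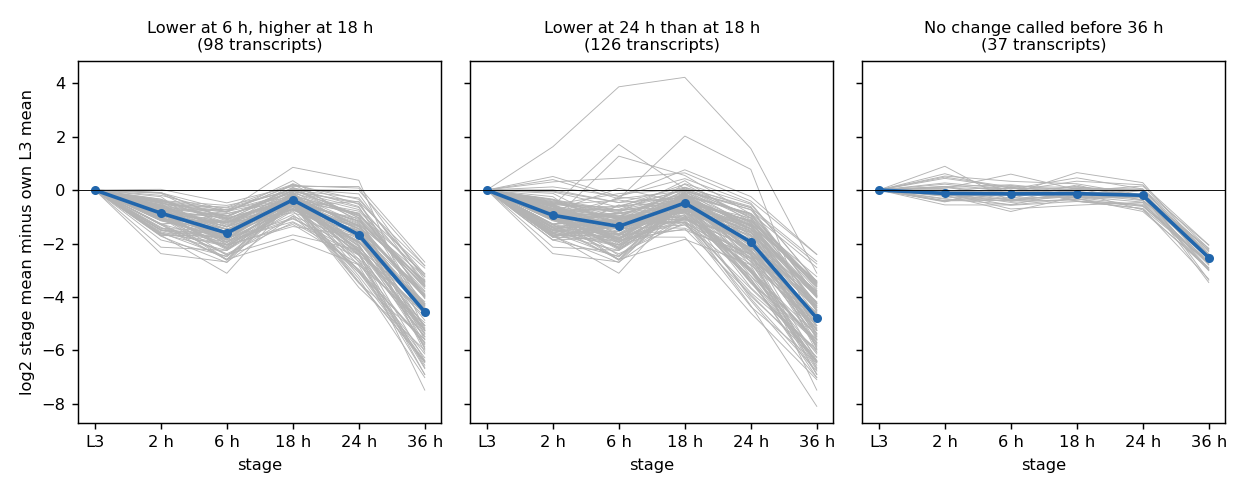
Stage means minus the transcript's own L3 mean (y axis, log2) for the 98 transcripts lower at 6 h than at L3 and higher at 18 h than at 6 h, the 126 lower at 24 h than at 18 h, and the 37 with no change called among the earlier stages. Grey lines are transcripts and the blue line is their median. The first and second panels share 80 transcripts. Their medians show a low point at 6 h, a return at 18 h and falls at 24 and 36 h. These changes are partly set by how the groups were formed. In the third panel the median is nearly flat until 24 h APF, while single transcripts vary.

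The largest drop belonged to FBtr0073784. It had log2 values of 10.99, 11.11, 11.16 and 11.53 at L3, then 11.82, 11.26, 11.70 and 11.57 at 2 h and 10.59, 10.55, 11.35 and 10.98 at 6 h APF. It had 13.55, 13.01, 13.05 and 13.26 at 18 h, 11.72, 11.42, 12.58 and 12.17 at 24 h, and 5.02, 6.68 and 5.15 at 36 h APF. The 18 h samples were above all others, the lowest at 13.01 against 12.58 in 24 h D. The 36 h samples were below all others by several units, with 36 h C the highest of its stage. Its mean was 13.22 ± 0.25 at 18 h and 11.20 ± 0.23 at L3 (SD, n = 4 each), a difference of 2.02 with an SE of 0.30 (limma, adjusted p = 2.8e-05). It was lower at 24 h than at 18 h APF by a difference of -1.25 (limma, adjusted p = 0.0074). Its drop of -5.26 is 38.2-fold.

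FBtr0079357 had the next drop, -4.98 or 31.6-fold, and the profile of the dipping group. Its values were 12.68, 12.81, 12.53 and 12.73 at L3, 10.98, 11.19, 10.83 and 11.39 at 2 h and 10.39, 9.92, 10.41 and 10.04 at 6 h APF. They were 12.40, 12.10, 11.96 and 12.34 at 18 h, 10.25, 9.89, 10.58 and 10.55 at 24 h and 5.10, 5.01 and 5.50 at 36 h APF. The 6 h and 24 h samples overlapped, and the 18 h samples lay above both. The difference of 6 h APF from L3 was -2.50, that of 18 h from 6 h APF was 2.01 and that of 24 h from 18 h APF was -1.88, each with an SE of 0.17 (limma, adjusted p = 1.4e-10, 4.4e-09 and 1.5e-07).

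The transcripts with the greatest rise of 24 h APF over L3, chosen by that difference and so given with no test, had other profiles. FBtr0085573 had 10.67, 10.48, 10.61 and 10.77 at L3, 12.27, 12.41, 12.36 and 11.98 at 2 h and 14.85, 13.79, 14.71 and 14.64 at 6 h APF. It had 14.86, 15.00, 14.30 and 15.24 at 18 h, 12.50, 10.73, 13.28 and 12.24 at 24 h and 7.96, 7.28 and 7.34 at 36 h APF. It was high at 6 and 18 h APF, and at 24 h sample B lay near the larval level while the other samples stayed above it. Its mean at 24 h APF was 12.19 ± 1.07 (SD, n = 4), and its drop, counted from L3 as the lowest earlier stage, was -3.11.

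FBtr0089651 kept its highest mean at 24 h APF. Its values were 11.07, 11.20, 11.06 and 10.84 at L3, 10.94, 10.82, 10.83 and 10.90 at 2 h and 12.39, 11.71, 12.59 and 11.97 at 6 h APF. They were 11.77, 12.20, 12.66 and 12.14 at 18 h, 12.43, 12.39, 12.35 and 12.42 at 24 h and 8.52, 8.23 and 8.94 at 36 h APF. The samples at 6, 18 and 24 h APF overlapped and lay above every sample of L3 and 2 h APF, and the 36 h samples lay below all of them. Its drop was -2.31, and -1.87 with cyclic loess normalization, outside the threshold.

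**Figure D5:**
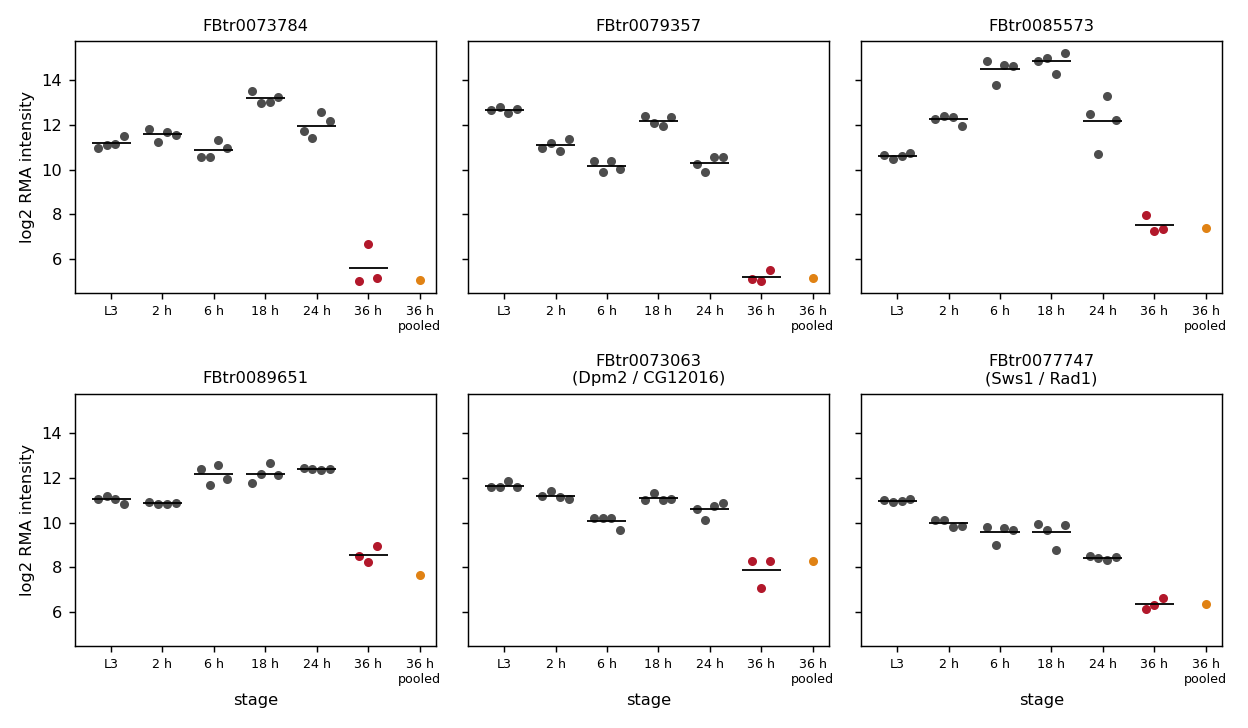
Log2 RMA intensity (y axis) of 6 transcripts in each sample, by stage. Grey points are samples before 36 h, red points are the 36 h samples, the orange point is the array of mixed RNA of 36 h B and D (36 h pooled), and black lines are stage means of 4 samples, or 3 at 36 h. The red points lie below all grey points in every panel, from 5.01 to 5.50 for FBtr0079357 and from 8.23 to 8.94 for FBtr0089651.

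Transcripts that the gene table lists among the synonyms of a pair of genes numbered 2. They were singled out after their values were seen, and neither gene of a pair can be given the value. FBtr0077747, on chromosome 2L, is listed for Sws1 (CG34314) and Rad1 (CG3240). Rad1 is a subunit of the ring-shaped clamp that signals DNA damage to the cell cycle checkpoint, and the fission yeast protein named Sws1 acts in recombination repair. Its values were 11.004, 10.94, 10.96 and 11.05 at L3, 10.13, 10.10, 9.81 and 9.87 at 2 h and 9.82, 9.01, 9.78 and 9.68 at 6 h APF. They were 9.94, 9.69, 8.76 and 9.88 at 18 h, 8.49, 8.43, 8.35 and 8.44 at 24 h and 6.15, 6.32 and 6.61 at 36 h APF. Every later sample lay below every L3 sample, the 24 h samples lay below all earlier ones, and the 36 h samples lay below those. The difference from L3 was -1.01 at 2 h and -2.56 at 24 h APF, with an SE of 0.21 (limma, adjusted p = 0.0012 and 3.9e-09). This SE rests on 1 variance for all stages. The SD was 0.05 at L3, 0.16 at 2 h, 0.06 at 24 h and 0.55 at 18 h APF. The drop was -2.07, and -1.99 with slide as a block, just outside the threshold.

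FBtr0073063, on chromosome 3L, is listed for Dpm2 (CG42456) and CG12016. Dpm2 is named for a subunit of the enzyme that makes dolichol-phosphate mannose, a sugar donor for glycosylation in the endoplasmic reticulum, and CG12016 has the synonym dNrk. Its values were 11.60, 11.58, 11.85 and 11.58 at L3, 11.21, 11.41, 11.16 and 11.06 at 2 h and 10.20, 10.19, 10.20 and 9.66 at 6 h APF. They were 11.02, 11.32, 11.003 and 11.04 at 18 h, 10.60, 10.11, 10.77 and 10.89 at 24 h and 8.29, 7.06 and 8.29 at 36 h APF. It belonged to the dipping group: the 6 h samples were below all of L3, 2 h and 18 h APF. The difference of 6 h APF from L3 was -1.59 and that of 18 h from 6 h APF was 1.03, with an SE of 0.22 (limma, adjusted p = 4e-06 and 0.00063). That of 24 h from 18 h APF was -0.50 and did not pass (limma, adjusted p = 0.16). The drop was -2.18, and -1.99 with slide as a block. It leaned on 36 h C, at 7.06, beside 8.29 in both B and D and 8.27 in the mixed array.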

How the data were processed

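The authors quantile normalized all 24 NimbleGen arrays with NimbleScan and summarised them by RMA, and the deposited files of single samples hold 1 linear intensity per transcript. For the RMA version, genome build and annotation release nothing was found in the labels or methods. Quantile normalization hides changes in total RNA and RMA compresses differences of dim transcripts. A deposited table of log2 values of 15469 transcripts, in which the 4 L3 columns are interchanged, served as an alternative.

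Log2 of the intensities of 15473 transcripts over 23 arrays, with 1 mean per stage, went into lmFit and eBayes of limma 3.58.1 (R 4.3.3). A difference was called at an adjusted p under 0.05, by Benjamini-Hochberg across every transcript. The mixed array was left out, and no transcript was filtered. The number of arrays limits the precision. Simulated data served as a check of the code. They had independent noise of equal spread at all stages, unlike these arrays, so they do not show how accurate the calls are. Figures were drawn with matplotlib 3.10.9.

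The transcripts, comparisons and lists were chosen with earlier results of these data known. The comparison of 18 h with 6 h APF, the groups of combined calls and the fit without 18 h C and 24 h B were added after the values were seen. Identifiers printed were by rule the 2 of largest drop and the 2 of greatest rise of 24 h over L3. The gene table (Release 6) ties 17 transcripts of the array to a single gene, none of them here. Gene lists, markers, promoters and sequences were not analysed here. Alternatives covered thresholds, normalization, slide, replicate letter, variance model, dim transcripts and each array left out.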

Additional observations from a re-analysis of the deposited data

Results flagged for a closer look

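For the medians over the 262 transcripts and the 6 transcripts given one by one, 35 groups of 4 samples were examined for a sample far from the others. Chance puts about 1 in 20 such groups past the limit of Dixon's ratio for 4 samples. A total of 3 passed it, all in FBtr0073063, the transcript listed for Dpm2 and CG12016. L3 sample 3 was high at 11.85 beside 11.58 to 11.60 in the other L3 samples. At 6 h APF sample E was low at 9.66, where the others had 10.19 to 10.20. At 18 h APF sample B was high at 11.32, where the others had 11.003 to 11.04. The 36 h samples, only 3, were not examined in this way. There FBtr0073063 had 7.06 in C beside 8.29 in B and D.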

How the results depend on the processing

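The number of transcripts depended on the drop required. A drop of at least 1.5 gave 575, which include all 262, and one of at least 3 gave 56. Among the 575, 227, 364, 238 and 378 were called changed at 2, 6, 18 and 24 h APF against L3, 262 at 18 h against 6 h, 198 at 24 h against 18 h and 574 at 36 h against 24 h APF. Among the 56, the numbers were 46, 46, 24, 49, 42, 44 and 56 in the same order. Counts of changed transcripts join both directions and show only how the numbers move with the threshold. At 18 h against 6 h APF, 22.6% of all transcripts were called higher and 17.9% lower. The shares for the other comparisons are given above. Under the other alternatives the number taken and all counts of changed transcripts stayed within 1.5 times of their values in the main fit. The members changed more than their number: with cyclic loess the rule took 208, of which 186 are among the 262. It took 226 with array medians centred again (225 shared), 213 with slide as a fixed block (212 shared), 269 with stage medians (234 shared) and 232 to 287 with each array left out in turn (218 to 262 shared). With dim transcripts left out, 199 remained. The counts changed at 24 h against 18 h APF were 112 to 146 with each array left out, 100 with cyclic loess and 140 without 18 h C and 24 h B. Deviations of samples with the same replicate letter correlated at 0.0829, -0.5538 and -0.0256 between 24 and 18 h APF. Between 36 and 24 h APF they correlated at 0.1791 and -0.1946. These values do not settle whether samples with the same letter had a common origin, and the main fit used no block for the letter. With the letter as a replicate block over the pupal arrays, 114 were changed at 24 h against 18 h and 262 at 36 h against 24 h APF. L3 samples carry numbers in place of letters, so no block was fitted against L3. Background and detection are not recorded, so how far dim 36 h values are compressed was not tested.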
